A study of Mus musculus with 6 samples.

Results

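The annexins Anxa1, Anxa2, Anxa3, Anxa4, Anxa5, Anxa6, Anxa7 and Anxa11, the scaffold gene Ahnak and the ferlin gene Myof were examined as a group of 10 genes that encode proteins of membrane scaffolding and repair, out of 47593 gene rows in the deposited table. They were found by symbol, and all 10 were listed. Ahnak and Myof had been chosen for their rise in E531R cells, so their values are a description with no test. The annexins were chosen by family, with earlier results of these data known, and Anxa9, another annexin above the minimum level for testing, is given beside them.

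The cells were c-Kit positive progenitors from mouse femur bone marrow that had been infected with a neomycin-selectable MSCV retrovirus, selected with G418 and passaged serially in methylcellulose with cytokines. In the E531R group (3 libraries) the virus carried MLL-AF9, a fusion of the methyltransferase MLL with AF9 that drives acute myeloid leukaemia, with the substitution E531R in AF9. In the WT group (3 libraries) the fusion was unchanged. The series describes the comparison as one of lost binding between AF9 and the corepressor BCOR. The genotype and age of the mice are not given in the labels, and neither is whether replicates were separate cultures, so each p-value rests on the spread among these libraries alone, which may be technical.

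Annexins are proteins that bind membranes rich in phosphatidylserine when calcium in the cell rises. They gather at plasma membrane wounds, link membranes to the actin skeleton and take part in vesicle traffic. Ahnak is a giant scaffold that binds the complex of annexin A2 with S100A10, and myoferlin is a ferlin, a membrane-anchored protein with many C2 domains that acts in vesicle fusion and membrane repair. In blood cells annexin A1 is abundant in neutrophils and monocytes and dampens inflammation, and annexin A3 is abundant in neutrophils.

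Reads counted to genes numbered 33459668, 23755210 and 24237823 in E531R replicates 1, 2 and 3, and 14161139, 19690545 and 30597351 in the WT replicates. Values are normalised read counts, the reads of a gene divided by a size factor of the library. Genes whose mean over the libraries reached 10 were tested with limma on log2(value + 1), and a call is an adjusted p under 0.05 after Benjamini-Hochberg adjustment over all 12991 genes tested. All 10 members passed this filter, Myof only through its E531R libraries. WT replicate 3 was the WT library least like the others (correlation of log2 values 0.978 and 0.977 with WT replicates 1 and 2, against 0.994 between those 2), and member results that it moves are also given without it.

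Of the 8 annexins, 5 rose in E531R cells (Anxa1, Anxa2, Anxa4, Anxa5 and Anxa11), 0 fell and 3 did not pass (Anxa3, Anxa6 and Anxa7). Over all genes tested 10.4% were called higher and 9.53% lower, 19.9% in all. Anxa9 fell, so the family did not move as a whole. The rise of Anxa1 was 9.91-fold, and those of the other 4 lay between 1.44-fold and 1.93-fold. Ahnak and Myof, nearly silent in WT cells, had means of 688 and 319 normalised reads in E531R cells, against 19.2 and 7.56 in WT cells. In bulk RNA more cells of a type and more RNA per cell cannot be told apart.

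**Figure D1:**
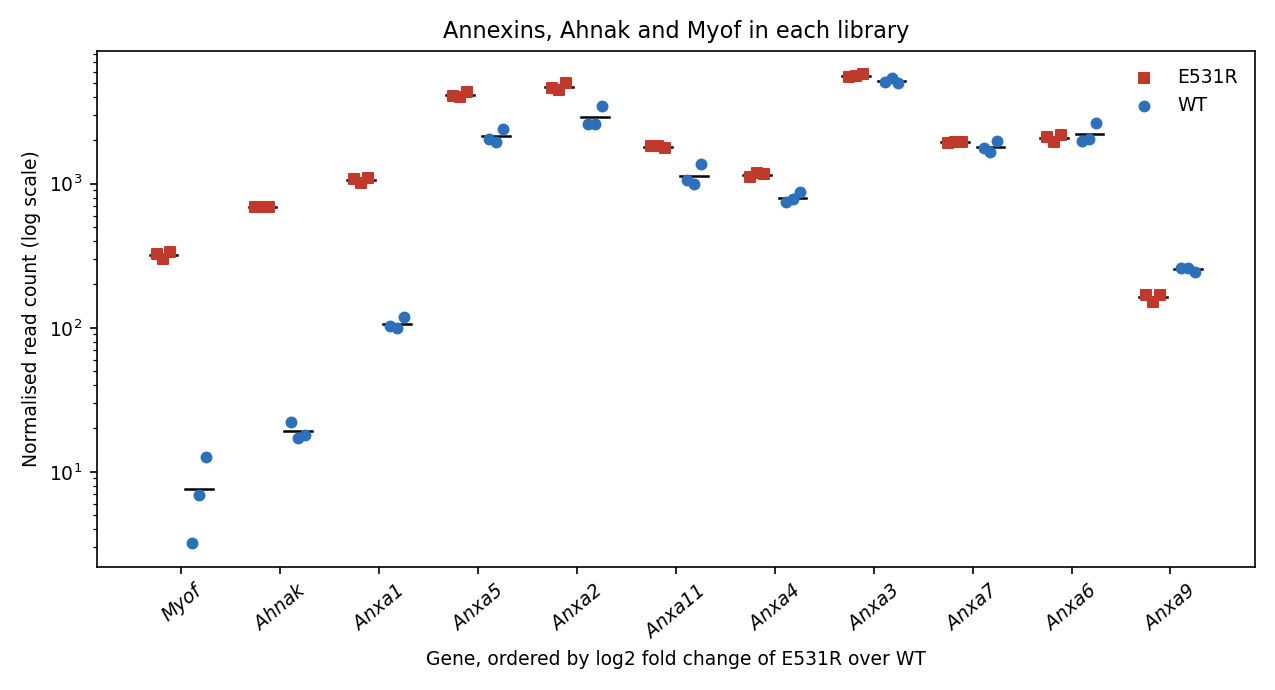
Annexins (Anxa9 included), Ahnak and Myof by library (red squares E531R, blue circles WT), in normalised reads on a logarithmic y axis, with a line at each group's mean. Genes run along the x axis from the highest to the lowest log2 fold change; the E531R libraries of Ahnak lie between 685 and 689 and its WT libraries between 17.2 and 22.3.

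Ahnak had 689, 688 and 685 normalised reads in the E531R libraries, from 992, 707 and 704 reads. In the WT libraries it had 22.3, 17.2 and 18.1, from 14, 15 and 23 reads. The E531R libraries were nearly alike and every one of them lay far above every WT library. The ratio of E531R over WT from the summed reads was 36.6 (95% exact binomial interval 27.8 to 49.2, which covers counting error only), and the fitted log2 fold change was 5.10 (SE 0.13). Its rise ranked 15 of 12991.

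Myof had 322, 298 and 336 normalised reads in the E531R libraries, from 464, 306 and 345 reads. In the WT libraries it had 3.19, 6.89 and 12.6, from 2, 6 and 16 reads. The groups did not overlap, and the WT libraries differed among themselves, relative to their mean, more than those of any other member, with replicate 3 highest. The ratio of E531R over WT from the summed reads was 36.8 (95% exact binomial interval 24.6 to 57.7). The log2 fold change was 5.38 (SE 0.40), rank 8 of 12991, and with pseudocounts of 0.5 and 10 it was 5.49 and 4.26. Both genes were high in every E531R library. Ahnak and Myof had been chosen for their rise, so their high ranks follow from that choice.

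Anxa1 had 1071, 1008 and 1100.0 normalised reads in the E531R libraries, against 102, 99.9 and 119 in the WT libraries. Every E531R library lay at least 8.48-fold above the highest WT library. The log2 fold change was 3.30 (SE 0.10; limma adjusted p = 4.53e-06), rank 124 of 12991. The annexin A1 protein, first described as lipocortin, acts outside the cell on formyl peptide receptors.

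Ahnak, Myof and Anxa1 all lie on chromosome 19 of the mouse build GRCm38, far from one another. GENCODE M21 places Ahnak at 8989284 to 9076914 on the plus strand, Anxa1 at 20373428 to 20390944 on the minus strand and Myof at 37899036 to 38043577 on the minus strand. Their promoters are shown because these 3 genes had the largest rises of the group, with that of Anxa2 as a gene with a small rise on another chromosome. The sequences are the 250 bases before the RefSeq start (GRCm38.p6), 5′ to 3′ on the strand of the gene, at chr19:8989034-8989283 (Ahnak, plus), chr19:38043578-38043827 (Myof, minus), chr19:20390672-20390921 (Anxa1, minus) and chr9:69453433-69453682 (Anxa2, plus). Capitals mark matches, on either strand, to the letters of 6 motifs (AP-1, C/EBP, the PU.1 core, the GC box, the TATA box and the CCAAT box) that are spelled out after the sequences.
Ahnak: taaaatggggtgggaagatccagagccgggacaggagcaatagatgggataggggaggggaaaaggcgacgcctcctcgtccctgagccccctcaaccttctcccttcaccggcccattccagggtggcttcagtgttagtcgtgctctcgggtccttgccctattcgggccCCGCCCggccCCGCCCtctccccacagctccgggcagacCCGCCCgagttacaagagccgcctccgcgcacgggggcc
Myof: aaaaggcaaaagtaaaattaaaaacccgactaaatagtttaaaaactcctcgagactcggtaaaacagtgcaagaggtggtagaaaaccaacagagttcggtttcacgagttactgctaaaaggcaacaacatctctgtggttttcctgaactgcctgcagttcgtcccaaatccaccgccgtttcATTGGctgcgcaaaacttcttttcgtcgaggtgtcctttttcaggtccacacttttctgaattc
Anxa1: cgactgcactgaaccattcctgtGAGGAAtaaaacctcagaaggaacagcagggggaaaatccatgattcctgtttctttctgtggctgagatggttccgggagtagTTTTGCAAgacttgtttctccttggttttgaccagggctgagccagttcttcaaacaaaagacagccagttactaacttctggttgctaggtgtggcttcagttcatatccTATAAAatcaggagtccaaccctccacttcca
Anxa2: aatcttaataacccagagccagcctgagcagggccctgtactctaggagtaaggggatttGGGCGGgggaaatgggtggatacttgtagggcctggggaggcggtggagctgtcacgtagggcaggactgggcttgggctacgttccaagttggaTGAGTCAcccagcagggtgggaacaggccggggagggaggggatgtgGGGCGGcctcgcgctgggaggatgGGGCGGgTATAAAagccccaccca

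The promoters did not share one layout. That of Ahnak was rich in G and C (66.4%, against a median of 52.4% over 32851 RefSeq starts) and held 3 GC boxes. That of Myof had 42.8% G and C and held 1 CCAAT box match, 64 bases before the start. The Anxa1 promoter had 46.0% G and C, with a TATA box match 32 bases before the start, a C/EBP match at 143 and a PU.1 core match at 227. The Anxa2 promoter held an AP-1 match at 95, a TATA box match at 17 and 3 GC boxes. The letters searched for AP-1 were TGANTCA, held by 6.75% of all windows of this length. Those for C/EBP were TTGCNNAA, in 9.56% of windows. The PU.1 core was searched as GAGGAA, in 23.3%, and the GC box, in 32.7%, as GGGCGG. The TATA box was searched with the letters TATAAA, in 12.4% of windows, and the CCAAT box by its name's letters, in 33.8%. No matches overlapped in these 4 promoters, and a match is a description of letters, not of a bound site. RefSeq starts were matched for 8 of the 10 members.

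The other annexins that rose were expressed in both groups, Anxa5 and Anxa2 more strongly than Anxa11 and Anxa4. Anxa5, whose protein forms lattices on exposed phosphatidylserine and is used to stain dying cells, had 4055, 3981 and 4339 normalised reads in E531R libraries, against 2054, 1949 and 2409.9 in WT libraries. All E531R libraries lay above all WT libraries, and WT replicate 3 was the highest of its group. The gene lies on chromosome 3 at 36448923 to 36475894. Its log2 fold change was 0.95 with an SE of 0.10 (limma adjusted p = 0.000563).

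Anxa2, which pairs with S100A10 and joins membranes to actin, had 4577, 4482 and 5029.9 in E531R libraries, against 2607, 2613 and 3469 in WT libraries. The groups did not overlap, with WT replicate 3 nearest to the E531R libraries. Anxa2 had a log2 fold change of 0.71 with an SE of 0.13 (limma adjusted p = 0.0077). Without WT replicate 3 it was 0.85. The gene lies on chromosome 9 at 69453620 to 69491795.

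Anxa11, an annexin with a long flexible tail, had 1828, 1825 and 1758 in E531R libraries, against 1055, 1002 and 1359.7 in WT libraries. Here too the groups did not overlap and WT replicate 3 was the highest of its group. The log2 fold change was 0.68 (SE 0.12; limma adjusted p = 0.00802), and without WT replicate 3 it was 0.81. Anxa11 lies on chromosome 14 at 25842156 to 25886804. GENCODE lists Anxa11os on the opposite strand, and its mean was 8.71 in E531R and 4.72 in WT libraries, far under that of Anxa11.

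Anxa4, which assembles into sheets on membranes, had 1104, 1182 and 1173 in E531R libraries, against 750.3, 779.6 and 872 in WT libraries. The lowest E531R library was 1.27-fold above the highest WT library. The difference on the log2 scale was 0.53 with an SE of 0.08 (limma adjusted p = 0.0046). Anxa4 lies on chromosome 6 at 86736840 to 86793584.

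Anxa3 (chromosome 5, 96793339 to 96845966), Anxa6 (chromosome 11, 54979108 to 55033445) and Anxa7 (chromosome 14, 20455260 to 20480133) did not pass the test. Anxa3 had 5535, 5547 and 5752 in E531R libraries, against 5116, 5407 and 5008 in WT libraries, a log2 difference of 0.12 with an SE of 0.06 (limma adjusted p = 0.262). Its groups did not overlap, but the gap between them was small. In all, 6 of the 8 annexins had every E531R library above every WT library, where 21.2% of all genes tested did and 44% had groups apart in either direction.

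Anxa6, an annexin with a duplicated core whose longest transcript has 26 exons, had 2097, 1945 and 2176 in E531R libraries, against 1968, 2031 and 2656 in WT libraries. The groups overlapped, and WT replicate 3 was the highest of the 6 libraries. The log2 fold change was -0.09 (SE 0.13; limma adjusted p = 0.663), and it turned to 0.05 without WT replicate 3.

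Anxa7, known as synexin for its part in membrane fusion, had 1909.6, 1961 and 1942 in E531R libraries, against 1777, 1665 and 1982 in WT libraries. The groups overlapped only through WT replicate 3. The log2 fold change was 0.10 (SE 0.08; limma adjusted p = 0.425). Without WT replicate 3 Anxa7 passed, with 0.17 and a limma adjusted p of 0.00390, so that 6 of the 8 annexins were then higher, where 24.3% of all genes tested were. Its adjusted p ran from 0.00390 to 0.708 over 17 alternatives.

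**Figure D2:**
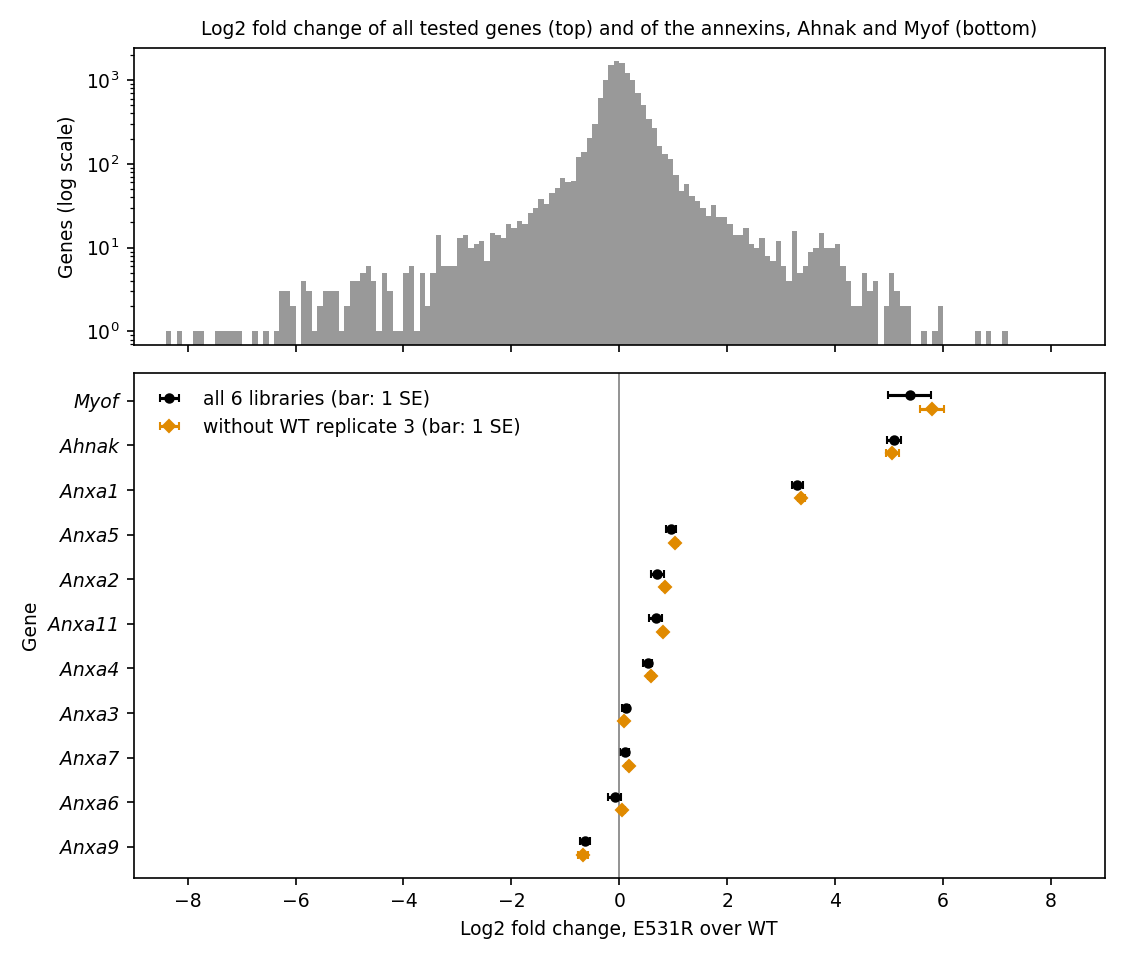
Log2 fold change of E531R over WT (x axis) as a histogram of all 12991 tested genes on a log y axis (top), and for each annexin, Ahnak and Myof with all 6 libraries (black circles) and without WT replicate 3 (orange diamonds), with bars of 1 SE (bottom). Myof and Ahnak lie at 5.38 and 5.10, Anxa1 at 3.30, 4 further annexins between 0.53 and 0.95, and Anxa9 at -0.64.

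Anxa9, an annexin whose calcium-binding sites are degenerate, lies on chromosome 3 at 95296096 to 95307176 and had 168, 152 and 167 in E531R libraries, against 258.6, 259 and 243 in WT libraries. All E531R libraries lay below all WT libraries, and the log2 fold change was -0.64 with an SE of 0.10 (limma adjusted p = 0.00354). The annotation has Mindy1 overlapping Anxa9 on the opposite strand and 6330562C20Rik on the same strand, and since no source used here gives the strand that was counted, these genes could share reads. The remaining annexins were near or at 0: Anxa8 and Anxa10 had no read in any library, and Anxa13 averaged 0.324 in E531R and 0 in WT libraries.

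WT replicate 3 differed from WT replicates 1 and 2 in several members. It was 2.50 times their mean for Myof, 1.33 times for Anxa2 and Anxa6, 1.32 times for Anxa11 and 1.204 times for Anxa5. For Ahnak, Anxa9 and Anxa3 the ratios were 0.915, 0.939 and 0.952. Over all genes tested the median ratio was 1.05, with quartiles of 0.788 and 1.24, so that Myof, Anxa2, Anxa6 and Anxa11 lay above the upper quartile.

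**Figure D3:**
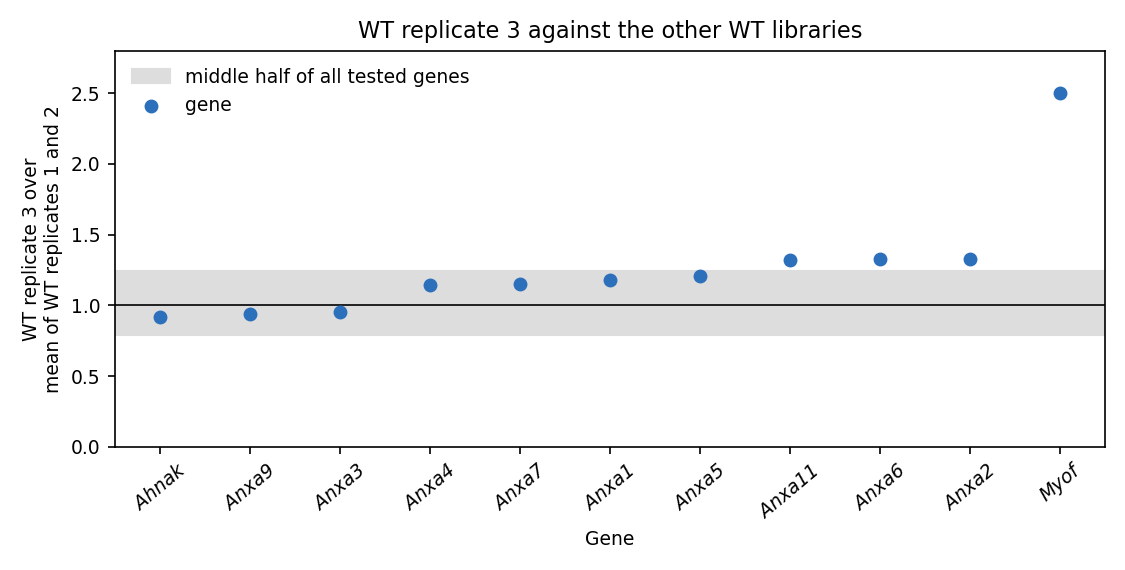
Normalised read count of WT replicate 3 divided by the mean of WT replicates 1 and 2 (y axis) for each annexin, Ahnak and Myof (points). The grey band spans the quartiles of all tested genes, 0.788 to 1.24; Myof lies at 2.50 and Anxa2, Anxa6 and Anxa11 lie just above the band.

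To set the genes against each other, values were divided by the length of the longest transcript in kilobases. On this scale the level of Anxa3 was highest in both groups, with 3518 ± 76.5 per kilobase in E531R and 3246 ± 130 in WT (SD, n = 3 each). Anxa5 had 2383 ± 109 in E531R and 1235 ± 139 in WT, and Anxa2 had 2059.9 ± 128 in E531R and 1270.3 ± 218 in WT. These 2 did not overlap with each other in E531R libraries, with Anxa5 higher, and overlapped in WT libraries. With the union of all exons as length, Anxa5 came before Anxa3 in E531R cells and before Anxa2 in WT cells.

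Below these came Anxa6 with 833 ± 47.1 per kilobase in E531R and 891 ± 153 in WT, Anxa7 with 667 ± 8.94 and 622 ± 55.3, and Anxa11 with 659.9 ± 14.4 and 417 ± 70.6. Anxa1 had 633 ± 28.0 in E531R and 63.9 ± 6.20 in WT, so that its E531R libraries overlapped with those of Anxa11 and its WT libraries lay below all other annexins of the group. Anxa4 had 439.7 ± 16.3 in E531R and 305 ± 24.3 in WT. Anxa7 and Anxa11 overlapped in E531R and not in WT libraries. With the union of all exons Anxa7 came after Anxa11 and Anxa1 in E531R cells.

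Ahnak and Myof stayed at the bottom of the order in both groups. Per kilobase Ahnak had 38.0 ± 0.114 in E531R and 1.06 ± 0.151 in WT, and Myof 44.9 ± 2.72 in E531R and 1.07 ± 0.668 in WT (SD, n = 3 each). Their levels did not overlap in E531R and overlapped in WT libraries. With the union of all exons their order turned in both groups, Ahnak having 34.5 and Myof 25.3 per kilobase in E531R. Of the 12569 tested genes with a transcript length, 23.6% had a lower level per kilobase than Ahnak in E531R and 0.637% in WT. For Myof the shares were 25.5% in E531R and 0.644% in WT, and for Anxa1 78.0% and 29.9%. The longest transcripts of Ahnak and Myof, of 18100 and 7094 bases, are the longest of the group.

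The summed level of 9 annexins per kilobase, the 8 members and Anxa9, was 11139.7, 11002 and 11699 in E531R libraries, against 7812, 7914 and 8834 in WT libraries. All E531R libraries were higher, and the means differed 1.38-fold. Anxa3 made up 31.2% ± 0.393 of this sum in E531R and 39.8% ± 3.81 in WT, and Anxa5 21.1% ± 0.272 in E531R and 15.1% ± 0.773 in WT (SD, n = 3 each). The share of Anxa1 was 5.61% ± 0.134 in E531R and 0.780% ± 0.025 in WT. Anxa6 had a share of 7.38% ± 0.243 in E531R and 10.8% ± 1.08 in WT, with no overlap between the groups. The sum and these shares rest on the longest transcript as length, and their SDs do not cover that choice. With the union of all exons Anxa5, and not Anxa3, had the highest level in E531R cells.

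**Figure D4:**
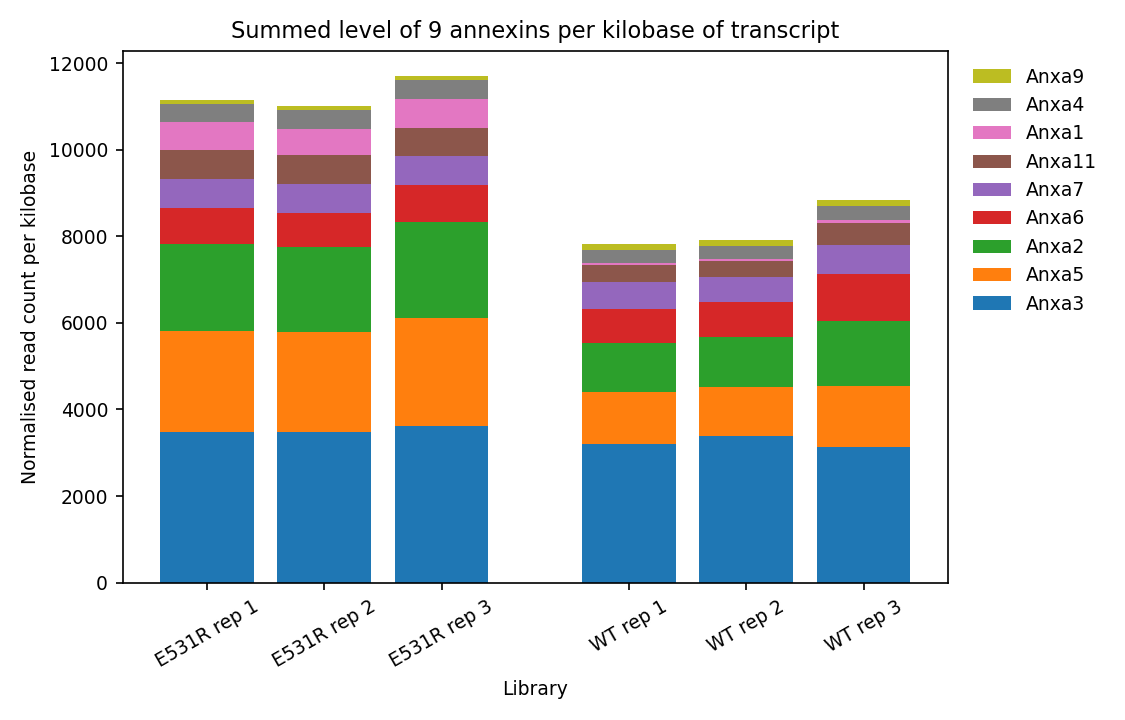
Stacked level of 9 annexins in normalised read counts per kilobase of the longest transcript (y axis) in each library (x axis, E531R left, WT right). The stacks of the E531R libraries reach 11002 to 11699 and those of the WT libraries 7812 to 8834, and the Anxa1 layer is visible mainly in E531R.

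Genes that work with annexins or in membrane repair were taken from a list of 49 names, of which 48 were listed and 36 could be tested. In E531R cells 9 of the 36 rose and 3 fell, Anxa9 being one of the 3, where 10.4% of all genes tested were higher and 9.53% lower. The median log2 fold change of the 36 was 0.18, against 0.01 over all genes. Of the 9, 4 (S100a4, Fpr1, Fpr2 and Ahnak2) had a WT mean under 10 and reached the test through their E531R libraries alone, so they are given as values with no test. Of the other 32 genes 5 rose. Without WT replicate 3, 22 of the 36 were higher and 6 lower, where 24.3% of all genes tested were higher and 23.1% lower. The 22 include S100a4, Fpr1, Fpr2 and Ahnak2, which the filter let in through their E531R libraries alone. The share of the 36 therefore cannot be set directly against that of all genes. S100a4 is also among the higher S100 genes counted next. By list the counts without that library were 3 higher of 4 S100 genes, 3 higher of 4 in the calpain system, 5 higher of 8 ESCRT genes, 5 higher and 3 lower of 9 genes of caveolae and the cortical skeleton, and 3 higher and 2 lower of 6 genes of phosphatidylserine exposure.

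Among S100 proteins, small calcium-binding partners of annexins, S100a6 had 1074, 1151 and 1209 normalised reads in E531R libraries, against 158, 162 and 229.9 in WT libraries. All E531R libraries lay above all WT libraries (log2 fold change 2.66, SE 0.16; limma adjusted p = 5.37e-05). S100a4 had 40, 40 and 40 reads in E531R libraries, against 1, 1 and 5 in WT libraries, a ratio of size-factor-scaled summed reads of 13.6 (95% exact binomial interval 6.39 to 34.5). S100a10, the partner of annexin A2, and S100a11, the partner of annexin A1, did not pass, with log2 differences of 0.20 (limma adjusted p = 0.427) for S100a10 and -0.0023 (0.990) for S100a11. Per kilobase S100a10 had 748 ± 84.8 in E531R and 657 ± 128 in WT, and S100a11 7087 ± 437 and 7123 ± 853.

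The formyl peptide receptors, through which annexin A1 acts, had nearly all their reads in E531R libraries. Fpr2 had 121, 85 and 100 reads in E531R libraries, against 0, 2 and 0 in WT libraries, a ratio from the summed reads of 121.2 (95% exact binomial interval 33.3 to 1005). Fpr1 had 34, 18 and 21 reads in E531R libraries and 0 in each WT library, at least 19.3-fold higher against a floor of 3 reads over the WT libraries. Fpr3 had no read in any library. These receptors belong to a family of close copies, and no source used here says how reads that match several copies were counted, so the split between them is uncertain.

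The other ferlin tested, Fer1l5, did not pass (log2 fold change -0.08; limma adjusted p = 0.778), and Dysf, dysferlin, averaged 0.324 in E531R and 0 in WT libraries. Ahnak2, the paralog of Ahnak, had 42, 30 and 21 reads in E531R libraries, against 0, 4 and 9 in WT libraries, and the ratio of summed reads was 5.67 (95% exact binomial interval 3.16 to 11.04).

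Of the calpain system, calcium-activated proteases and their inhibitor, Cast, the inhibitor calpastatin, rose, with a log2 fold change of 0.51 (limma adjusted p = 0.0117), and 3 genes of the system did not pass. Cast did not pass once E531R replicate 1, 2 or 3 was left out (adjusted p = 0.0555, 0.0567 and 0.0615), in a range of 1.14e-06 to 0.0615 over 17 alternatives. Of 8 tested genes of the ESCRT machinery, which pinches off damaged membrane, 0 passed with limma, with log2 fold changes between -0.03 and 0.37. At an unadjusted p under 0.05 the count was 0, and edgeR on whole reads called 0. Without WT replicate 3, however, 5 of the 8 were higher, where 24.3% of all genes tested were.

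Of 9 tested genes of caveolae, membrane tubulation and the cortical skeleton, Actn1 and Cav2 rose and Ptrf fell. Actn1, an actin crosslinker, had 5389, 5472 and 5549 in E531R libraries, against 3111, 2966 and 3554 in WT libraries (log2 fold change 0.77; limma adjusted p = 0.000799). Cav2, a caveolin, had 163, 148 and 195 in E531R libraries, against 76.6, 86.1 and 53.5 in WT libraries (log2 fold change 1.23; limma adjusted p = 0.00592). Ptrf, a cavin that coats caveolae, had a log2 fold change of -0.75 (limma adjusted p = 0.0197), which was lost without E531R replicate 1 or 3 (0.0643 and 0.0677) or WT replicate 2 (0.0621), in a range of 0.00153 to 0.0677 over 17 alternatives.

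Of 6 tested genes of phosphatidylserine exposure, the lipid change that annexins recognise, Plscr1 rose and Plscr3 fell, both named as phospholipid scramblases. Plscr1 had 1496, 1494 and 1518 in E531R libraries, against 659, 689 and 771 in WT libraries (log2 fold change 1.09; limma adjusted p = 0.000143). Plscr3 had 397, 345 and 374 in E531R libraries, against 1766, 1769 and 2144 in WT libraries (log2 fold change -2.34; limma adjusted p = 1.80e-05). The groups of either gene did not overlap. Ano6, the calcium-activated scramblase, did not pass (log2 fold change 0.20; limma adjusted p = 0.101).

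**Figure D5:**
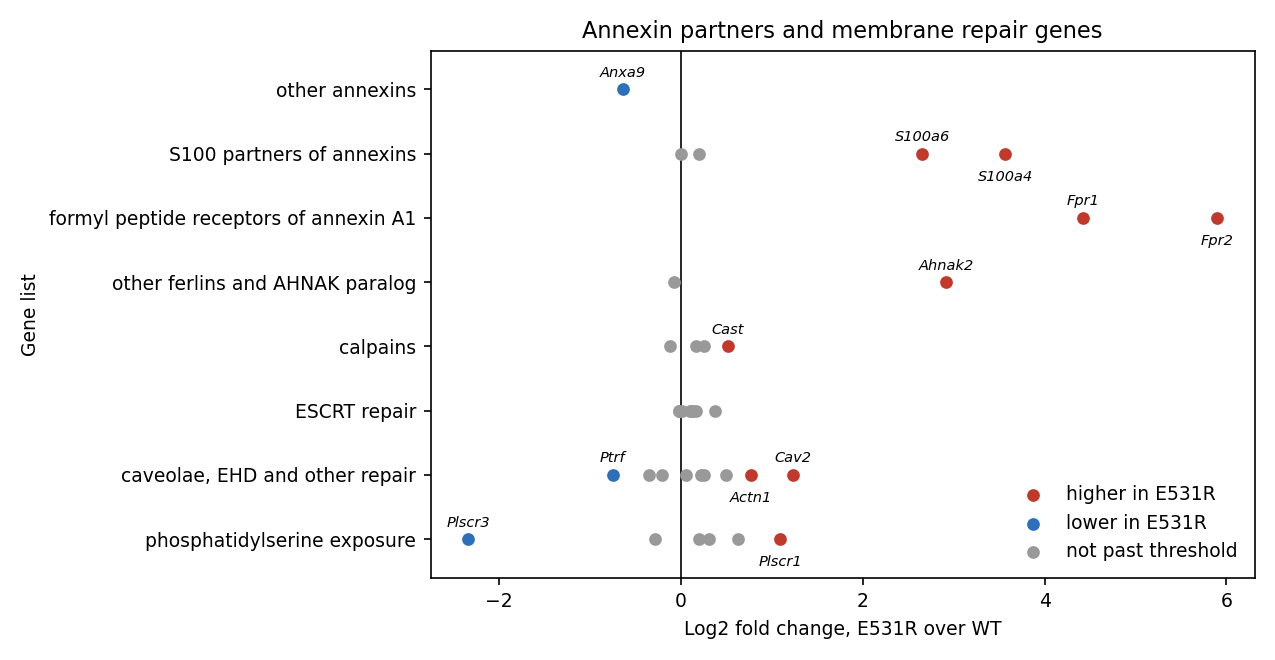
Log2 fold change of E531R over WT (x axis) of the tested genes of 8 lists of annexin partners and membrane repair genes (rows), with 1 point per gene (red higher, blue lower, grey not past the threshold) and the called genes named. S100a4, Fpr1, Fpr2 and Ahnak2 are coloured as higher but reached the test through their E531R libraries alone, so their colour is no test. Fpr2 lies at 5.90 and Plscr3 at -2.34, and the points of the ESCRT row lie between -0.03 and 0.37.

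Most tested markers of neutrophil granules, monocytes and macrophages rose in E531R cells. All 9 tested of 10 neutrophil granule markers rose, with a summed level of 71654 to 78999.6 in E531R and 7301 to 9815 in WT libraries, and Retnlg was near 0. Of 10 monocyte and macrophage markers 9 rose and Ly6c2 did not pass (10 were higher without WT replicate 3). Their summed levels were 36648 to 40853 in E531R and 22451 to 30345 in WT libraries. Most of both sums came from Ly6c2, with means of 22415 in E531R and 22715 in WT libraries, so they understate the other 9. Over all genes tested 10.4% were called higher, and 24.3% without WT replicate 3. The counts include Mmp9 and Cx3cr1, whose WT means were 5.14 and 5.70. These 2 reached the test through their E531R libraries alone, so their calls are no test. The part of all these markers in the values of the annexins, Ahnak and Myof was not tested.

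Markers of the other cell types were lower in level, apart from the progenitor markers. The 5 progenitor markers summed to 148423 to 151987 in E531R and 103717 to 115215 in WT libraries. Most of this came from Mpo, with means of 137253 in E531R and 93563 in WT libraries. The summed levels were 424 to 467 in E531R and 91.0 to 124 in WT libraries for 6 megakaryocyte markers, of which 3 of 3 tested rose. Of those 3, Pf4 and Gp1bb had WT means of 5.48 and 5.62 and reached the test through their E531R libraries alone. Their calls are therefore no test. With all 6 libraries 10.4% of all genes tested were called higher and 9.53% lower. For 4 eosinophil markers the summed levels were 127 to 142 in E531R and 48.2 to 66.1 in WT libraries. Nearly all of this came from Siglecf, with means of 132 and 55.3, as Prg2, Epx and Prg3 were near 0. The 6 mast cell and basophil markers summed to 151 to 177 in E531R and 168 to 266 in WT libraries. For 5 B cell markers the sums were 62.3 to 70.2 and 79.8 to 112. The 6 erythroid markers summed to at most 21.4 in E531R and 24.4 in WT libraries, and the 5 T and NK cell markers to at most 2.08 and 3.44. Cd3e, Ms4a1 and Fcer1a had no read in either group. The 6 stroma and endothelium markers summed to 1434 to 1548 in E531R and 5558 to 6457 in WT libraries, with Pecam1 and Pdgfrb lower in E531R. Nearly all of this sum came from Pecam1 alone, with means of 1460 in E531R and 5850 in WT libraries. Cdh5, Kdr and Col1a2 were near 0 in both groups, and Col1a1, low in both, did not pass. Of the progenitor markers Kit, used to select the cells, had 3335 ± 4.07 in E531R and 3587 ± 99.96 in WT libraries (SD, n = 3 each) and did not pass. Cd34 and Mpo rose among them and Flt3 fell. Flt3 had means of 5.98 in E531R and 42.6 in WT libraries. It reached the test through its WT libraries alone, so its call is no test. Without WT replicate 3 there were 2 higher and 3 lower of these 5, Flt3 included. In that setting 24.3% of all genes tested were higher and 23.1% lower.

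The genes most like Ahnak and Myof over the 6 libraries were sought by the root mean square difference of log2 values centred on their mean, among 9374 genes whose mean reached 100. Nearest to Ahnak were Spp1, the secreted phosphoprotein osteopontin (0.08), Cybb, the catalytic subunit of the phagocyte NADPH oxidase (0.13), and Ear2, an eosinophil-type ribonuclease (0.17). Cybb had 3203 ± 58.1 normalised reads in E531R and 83.8 ± 1.03 in WT libraries (SD, n = 3 each). Nearest to Myof were the lectin gene Clec4n (0.26), the ficolin gene Fcnb (0.34) and the stefin gene Stfa3 (0.50). Clec4n had 1544 ± 186 in E531R and 37.1 ± 11.5 in WT libraries.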

How the data were processed

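Total RNA was sequenced from 6 libraries, 3 with MLL-AF9 E531R and 3 with WT, with groups taken from each sample's title. Tools named per the submitters' processing notes were HISAT2, featureCounts, DESeq2, SAMtools, cutadapt and FastQC, on GRCm38. Their versions, the gene annotation and the counted strand: not given in the sources used here. What was deposited is a table of a normalised signal per gene and library, reads divided by a size factor by the authors. In every library 100% of values came out as whole reads within 0.001. The authors' baseMean, Wald score, log2 fold change (WT over E531R) with its error and p-value, with an adjusted p-value, are also deposited, and none of these is printed here.

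The members, the gene lists, the tests and the rule for named genes were chosen with earlier results of these data known. The named genes are all members, up to 4 called genes of each list with the smallest adjusted p, and the 3 genes nearest in pattern to Ahnak and Myof. Anxa9, genes given at or near 0 and uncalled partners were named as members of their lists.

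Genes were tested with limma 3.58.1 under R 4.3.3 (empirical Bayes with trend, two-sided, no covariate), run on log2(value + 1), for genes whose mean reached 10. The fit was tested on simulated data. Fold changes are on that log2 scale, on which those of genes with low values depend on the pseudocount. Alternatives were other pseudocounts and filters, TMM and upper-quartile scaling, array weights, the replicate number as a block, limma voom, edgeR 4.0.16 and DESeq2 1.42.0 on whole reads, and leaving out each library. On whole reads edgeR called 1393 genes higher and 1251 lower. Scaling by size factors takes it that the bulk of genes is unaltered. No source used here names molecular identifiers, so intervals and floors cover counting error only. Positions and transcript lengths are from GENCODE M21, promoters from RefSeq. Figures were drawn with matplotlib 3.10.9.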

Additional observations from a re-analysis of the deposited data

How the results depend on the processing

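Under 17 alternatives Anxa1, Anxa2, Anxa4, Anxa5 and Anxa11 stayed higher and Anxa9 lower, past the threshold each time. Their weakest adjusted p values over these alternatives were 0.000177, 0.0451, 0.0338, 0.00609, 0.0440 and 0.0247. Leaving out each library in turn gave 5 to 6 annexins higher and 0 lower, and the other alternatives 5 to 7 and 0. At an unadjusted p under 0.05, 0 of the 8 annexins were lower with limma, and edgeR and DESeq2 called 0 lower. Array weights, whose estimation stopped before its set tolerance, called 3432 genes higher and 3266 lower over all genes and 22 and 6 of the annexin partners and membrane repair genes. They also brought Anxa3 and Anxa7 past the threshold (adjusted p = 0.0216 and 0.0115). The log2 fold change of Anxa6 turned to 0.056 with array weights, and leaving out 1 library at a time gave -0.17 to 0.050, the highest without WT replicate 3; the cause was not tested. With a minimum mean of 50, 5 partner genes were called higher, since those that are low in WT cells were then not tested. Leaving out each library in turn gave 819 to 3159 genes higher and 746 to 2999 lower over all genes, and 7 to 22 higher and 2 to 6 lower among the partners, the highest counts without WT replicate 3. Correlations of same-numbered deviations were 0.00174, 0.192 and 0.238 for replicates 1, 2 and 3. E531R replicates 2 and 3 correlated best with the WT library of their number, and E531R replicate 1 best with WT replicate 2 (0.0224). These values cannot settle whether the replicate numbers pair the libraries. With the replicate block 1179 genes were higher and 1062 lower, 5 annexins were higher, and not every library correlated best with its own number. Depth limits Myof, Fpr1, Fpr2, S100a4 and Ahnak2, which had at most 24 reads over the WT libraries.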

Other observations

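Some transcripts overlap the annexin genes on either strand. Gm16144, antisense to Anxa2, averaged 4.91 normalised reads in E531R libraries and 0 in WT libraries, and 6330562C20Rik, which overlaps Anxa9, averaged 56.1 in E531R and 80.4 in WT libraries. Gm42603, within Anxa3, averaged 5.24 in E531R and 3.62 in WT libraries. These rows were not tested for a relation to the annexins they overlap.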
